A study of Gallus gallus with 12 samples.

Results

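The immediate early genes JUN, JUND, FOS, MYC, EGR1, ATF3, BTG2 and IER2 were followed in the embryonic heart of the chicken. The series holds 12 Affymetrix chicken arrays of whole hearts. The embryos came from Tibetan, Shouguang and Dwarf Recessive White chicken eggs, the eggs being full sibs per the labels, and incubation in hypoxia or normoxia gave 2 arrays for each breed and condition, 6 groups in all. The labels name no altered gene and no added agent in any group. They also leave the oxygen level, the embryonic age and the number of pooled hearts unstated. Members were taken by the gene symbol that the platform annotation gives a probe set. Of the 8 genes, 6 were found among the 13009 named genes of the array, with 9 of its 38439 probe sets, and no probe set in the annotation used here carried the symbol JUND or IER2. A probe set entered the tests when its mean log2 signal lay at or above the 40th percentile, a signal of 79.5. This kept 23063 probe sets, among them 7 of the 9, for JUN, MYC, EGR1, ATF3 and BTG2. FOS and the dimmest of the 3 BTG2 probe sets were left out of the tests.

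Immediate early genes are transcribed within minutes of a stimulus such as a growth factor, stretch or stress, without new protein synthesis. The kinases that carry the signal act on factors already bound at their promoters, among them the serum response factor SRF and its ELK partners. JUN and FOS proteins pair into the dimer AP-1, ATF3 is a stress-induced relative that can pair with JUN, and EGR1 is a zinc finger factor. MYC, which pairs with MAX, drives growth and ribosome production, while BTG2 is no DNA-binding factor and restrains proliferation. In the heart these genes are known to respond to mechanical load and to reperfusion.

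Arrays had median signals of 134 to 155, and arrays of 1 group correlated with a Pearson r of 0.949 to 0.960 over the tested probe sets. Arrays of different groups had an r of 0.937 to 0.962, a range that spans that of the replicates. Heart muscle markers were present: TNNT2, the cardiac troponin T gene, was in percentile 99.9 of signal or higher on every array, as were MYL2 and NPPA. Others reached lower, with a lowest percentile of 38.8 for MYH7, 65.6 for MYL4 and 68.9 for PLN. MYH7 varied most among the 19 markers, with a log2 signal from 6.57 to 12.97. One array, Dwarf Recessive White normoxia replicate 1, stood apart in the mean log2 signal of 14 W-linked genes, a chromosome found in female birds. It had 6.01 there, against 8.09 to 9.60 on the other arrays. Changes of the tested members within Dwarf Recessive White hearts are given with and without it. Values of other genes and differences between breeds include it unless stated. All values are log2 signals, group values are mean ± SD (n = 2 arrays), and a change is hypoxia minus normoxia ± the standard error (SE) of the limma fit. In whole hearts, fewer cells of a type and less RNA per cell cannot be told apart.

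JUN, the main partner in AP-1 and a target of the JNK kinases, was well above the dim limit on all arrays. In the Tibetan breed it had log2 signals of 12.43 and 12.11 in hypoxia and of 11.94 and 12.24 in normoxia. Shouguang hearts had 12.08 and 12.39 in hypoxia and 11.85 and 11.82 in normoxia. Dwarf Recessive White hearts had 12.29 and 12.41 in hypoxia and 11.43 and 11.76 in normoxia. Hypoxia arrays lay above both normoxia arrays in Shouguang and Dwarf Recessive White and overlapped with them in Tibetan hearts. The hypoxia means were close together, from 12.24 ± 0.22 in Shouguang to 12.35 ± 0.09 in Dwarf Recessive White. It was the normoxia means that were spread out, with 12.09 ± 0.21 in Tibetan, 11.83 ± 0.02 in Shouguang and 11.59 ± 0.23 in Dwarf Recessive White hearts. The change was accordingly 0.18 ± 0.16 in Tibetan, 0.41 ± 0.16 in Shouguang and 0.75 ± 0.16 in Dwarf Recessive White hearts. The last value was 0.59 ± 0.19 without normoxia replicate 1, which had the lowest JUN signal of all arrays. In Tibetan hearts it was 0.02 without hypoxia replicate 1 and 0.34 without hypoxia replicate 2, and in Shouguang hearts 0.25 without hypoxia replicate 2 and 0.56 without hypoxia replicate 1.

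FOS, the other AP-1 partner, was close to background. Its single probe set lay under the dim limit on 9 of 12 arrays. The exceptions were replicate 1 of Tibetan hypoxia (6.48), Tibetan normoxia (6.68) and Dwarf Recessive White hypoxia (6.67). The limit is a filter on mean signal and not a measured detection limit. Values this low were not taken to give a reliable order of the conditions, so no change is given for FOS. Its replicates were also far apart, by 2.33 in Tibetan hypoxia and 3.27 in Tibetan normoxia. In Dwarf Recessive White hearts FOS had 6.67 and 5.41 in hypoxia and 4.16 and 2.55 in normoxia, all but the first under the limit. The conditions overlapped in the other breeds.

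EGR1, a zinc finger factor that binds GC-rich promoters, was higher on every hypoxia array than on any normoxia array of the same breed. Its brighter probe set had 11.63 and 11.79 in Tibetan hypoxia against 10.74 and 11.38 in Tibetan normoxia. Shouguang hearts gave 11.52 and 11.25 against 10.46 and 10.88, and Dwarf Recessive White hearts 11.56 and 11.92 against 10.34 and 11.47. The gap between the closest arrays was 0.25 in Tibetan, 0.37 in Shouguang and only 0.09 in Dwarf Recessive White. Normoxia replicates of this probe set were far apart. Its normoxia means of 11.06 ± 0.45 in Tibetan, 10.67 ± 0.30 in Shouguang and 10.90 ± 0.80 in Dwarf Recessive White hearts did not differ beyond their spread. The changes were 0.65 ± 0.31 in Tibetan, 0.71 ± 0.31 in Shouguang and 0.84 ± 0.31 in Dwarf Recessive White hearts. Without Dwarf Recessive White normoxia replicate 1, the array with the low W-linked signal and also the lowest EGR1 signal, the last of these was 0.27 ± 0.27. Without normoxia replicate 2 of that breed it was 1.40. In Tibetan hearts it was 0.33 without normoxia replicate 1 and 0.97 without normoxia replicate 2. The dimmer EGR1 probe set separated the conditions in all 3 breeds too, with changes of 0.50 ± 0.22, 0.55 ± 0.22 and 0.74 ± 0.22 in the same order of breeds. The value in Dwarf Recessive White was 0.35 ± 0.20 without normoxia replicate 1 and 1.13 without normoxia replicate 2. Normoxia means of the dimmer probe set were 9.37 ± 0.07 in Tibetan, 9.02 ± 0.06 in Shouguang and 9.19 ± 0.55 in Dwarf Recessive White hearts. There the Tibetan and Shouguang means differed by more than their spread. Across the 12 arrays the 2 probe sets had a Pearson r of 0.956.

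**Figure D1:**
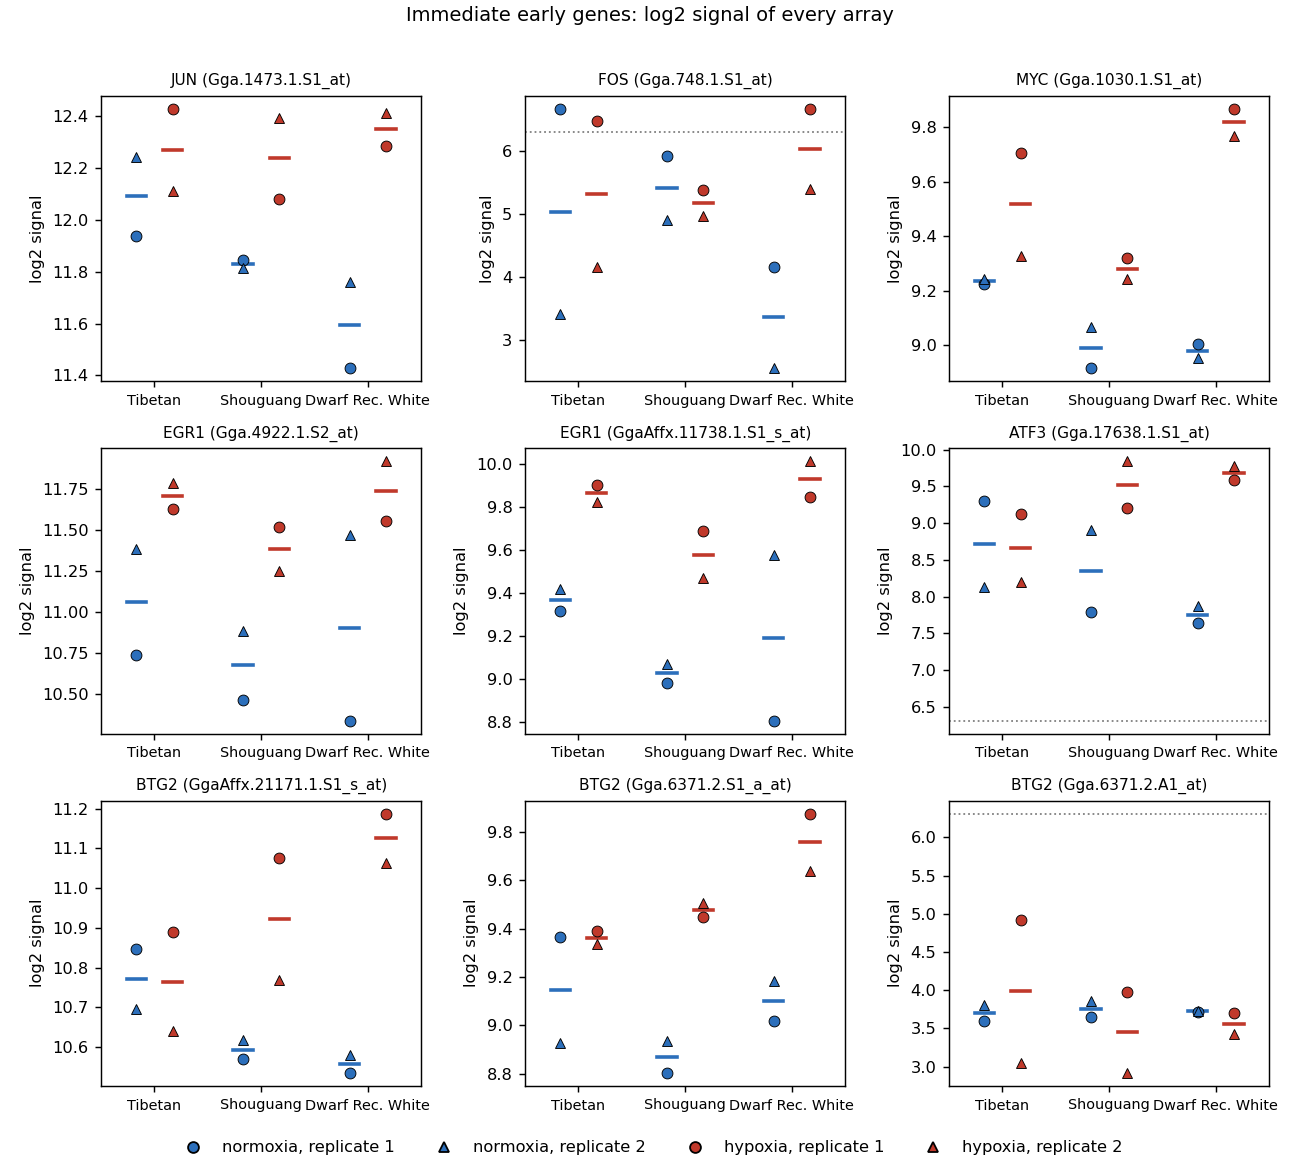
Log2 signal (y axis) of the 9 probe sets of JUN, FOS, MYC, EGR1, ATF3 and BTG2 on each array, by breed (x axis), with normoxia in blue and hypoxia in red, circles for replicate 1, triangles for replicate 2, bars for group means and the dotted line for the dim limit where it is near the data. Panels have their own y ranges. EGR1 and MYC separated the conditions in all 3 breeds. JUN, ATF3 and the 2 tested BTG2 probe sets overlapped in Tibetan hearts and were separated in the other breeds, and FOS lay mostly under the limit.

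MYC had close replicates in all groups but Tibetan hypoxia. Tibetan hearts gave 9.71 and 9.33 in hypoxia and 9.23 and 9.24 in normoxia. Shouguang hearts gave 9.32 and 9.24 against 8.92 and 9.07, and Dwarf Recessive White hearts 9.87 and 9.77 against 9.005 and 8.954. Both hypoxia arrays were above both normoxia arrays in each breed, narrowly in Tibetan (a gap of 0.09) and widely in Dwarf Recessive White (0.76). Normoxia means were 9.23 ± 0.01 in Tibetan, 8.99 ± 0.11 in Shouguang and 8.98 ± 0.04 in Dwarf Recessive White hearts, the last pair within their spread. Hypoxia means were 9.52 ± 0.27, 9.28 ± 0.06 and 9.82 ± 0.07 in the same order. The change of 0.84 ± 0.17 in Dwarf Recessive White, 1.79-fold, compares with 0.28 ± 0.17 in Tibetan and 0.29 ± 0.17 in Shouguang hearts. It was 0.86 ± 0.22 without Dwarf Recessive White normoxia replicate 1. The Tibetan change was 0.09 without hypoxia replicate 1 and 0.47 without hypoxia replicate 2.

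ATF3, which is switched on by many kinds of cell stress, had the widest range of all members that were tested, from 7.64 to 9.84. Tibetan hearts gave 9.13 and 8.19 in hypoxia and 9.30 and 8.14 in normoxia. There the replicate 1 arrays of both conditions were high and the replicate 2 arrays low, and the conditions overlapped. Shouguang hearts had 9.20 and 9.84 in hypoxia and 7.79 and 8.91 in normoxia. Dwarf Recessive White hearts had 9.58 and 9.78 in hypoxia and 7.64 and 7.87 in normoxia. The conditions did not overlap in these 2 breeds, and the distance between the closest arrays was 0.29 in Shouguang and 1.72 in Dwarf Recessive White. The change was -0.06 ± 0.44 in Tibetan, 1.17 ± 0.44 in Shouguang and 1.93 ± 0.44, or 3.80-fold, in Dwarf Recessive White hearts. The value in Dwarf Recessive White was 1.81 ± 0.56 without normoxia replicate 1. In Shouguang it depended on which normoxia array was kept, with 0.61 without replicate 1 and 1.73 without replicate 2. In Tibetan hearts even the sign did, with 0.53 without normoxia replicate 1 and -0.64 without replicate 2.

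BTG2, the antiproliferative member, was read by 2 tested probe sets, with a Pearson r of 0.850 between them over the 12 arrays. For the brighter one, Tibetan hearts gave 10.89 and 10.64 in hypoxia and 10.85 and 10.70 in normoxia. Shouguang hearts gave 11.08 and 10.77 against 10.57 and 10.62, and Dwarf Recessive White hearts 11.19 and 11.06 against 10.54 and 10.58. Hypoxia arrays were above normoxia arrays in the last 2 breeds and overlapped with them in the first. Hypoxia means went from 10.77 ± 0.18 in Tibetan to 11.13 ± 0.09 in Dwarf Recessive White hearts, and normoxia means from 10.77 ± 0.11 to 10.56 ± 0.03 in the same breeds. Changes of -0.01 ± 0.14 in Tibetan, 0.33 ± 0.14 in Shouguang and 0.57 ± 0.14 in Dwarf Recessive White hearts follow from these signals. Without Dwarf Recessive White normoxia replicate 1 the last was 0.55 ± 0.19, and the Shouguang value was 0.17 without hypoxia replicate 1 and 0.48 without hypoxia replicate 2. The other tested probe set showed the same separation, with changes of 0.22 ± 0.19, 0.61 ± 0.19 and 0.66 ± 0.19. Its Tibetan value was -0.0013 without normoxia replicate 2 and 0.44 without normoxia replicate 1, and its Dwarf Recessive White value 0.57 ± 0.24 without normoxia replicate 1, below that of Shouguang. The third lay under the dim limit on all 12 arrays and says nothing on direction.

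Averaged over the breeds, the hypoxia effect on single members did not pass the threshold, an adjusted p of 0.05 over all tested probe sets. By limma with Benjamini-Hochberg adjustment 0 of the 7 member probe sets were called, beside 0.0564% of all 23063. ATF3 stood at 1.01 ± 0.25 (adjusted p = 0.223), EGR1 at 0.73 ± 0.18 (adjusted p = 0.217) and 0.60 ± 0.13 (adjusted p = 0.153) for its 2 probe sets. MYC stood at 0.47 ± 0.10 (adjusted p = 0.150), JUN at 0.45 ± 0.09 (adjusted p = 0.138) and BTG2 at 0.30 ± 0.08 (adjusted p = 0.286) and 0.49 ± 0.11 (adjusted p = 0.156). All 7 lay above 0, with a median of 0.49 beside 0.01 over all tested probe sets, of which 51.1% lay above 0. Without adjustment all 7 had a p under 0.05 and a value above 0, beside 4.41% of all tested probe sets. Probe sets with a smaller p than a given member made up from 0.278% (JUN) to 1.38% (the brighter BTG2 probe set) of those tested. The genes had been chosen with earlier results of these arrays known, so these shares describe the members and are no independent support.

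Within single breeds the order of size was the same for every tested probe set, lowest in Tibetan and highest in Dwarf Recessive White hearts. Some steps were far below their SE. Tibetan minus Shouguang was -0.01 ± 0.25 for MYC and -0.06 ± 0.44 and -0.05 ± 0.31 for EGR1. The 7 probe sets read 5 genes on the same arrays, so they are not independent. JUN, ATF3 and the brighter BTG2 probe set kept the order of the breeds in all 24 alternative settings and arrays left out. It was kept in 21 of 24 for MYC, in 15 of 24 and 20 of 23 for the 2 EGR1 probe sets and in 19 of 23 for the dimmer tested BTG2 probe set. Some of these settings alter only the filter, the variances or the threshold. They leave the estimated changes as they are and keep the order by construction. By limma 0 member probe sets passed in any breed, beside 0% of all tested probe sets in Tibetan, 0% in Shouguang and 0.00434% in Dwarf Recessive White, a single probe set of CCN2. Adjusted p-values of the members were 0.265 to 0.717 in Dwarf Recessive White, 0.812 to 0.952 in Shouguang and 0.9997 in Tibetan hearts. With unadjusted p under 0.05 and above 0, 7 of 7 member probe sets were counted in Dwarf Recessive White (3.26% of all tested). In Shouguang 6 of 7 were counted (2.97%), and in Tibetan hearts 1 of 7 (2.35%), the dimmer EGR1 probe set. Complete separation with hypoxia above normoxia held for 7 of 7 in Dwarf Recessive White, beside 18.7% of all tested probe sets, and for 7 of 7 in Shouguang, beside 15.4%. In Tibetan hearts it held for 3 of 7, MYC and both EGR1 probe sets, beside 17.8%. The same 3 were separated in all breeds, as were 1.21% of all tested probe sets. All 7 were separated in both Shouguang and Dwarf Recessive White, beside 3.82%.

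**Figure D2:**
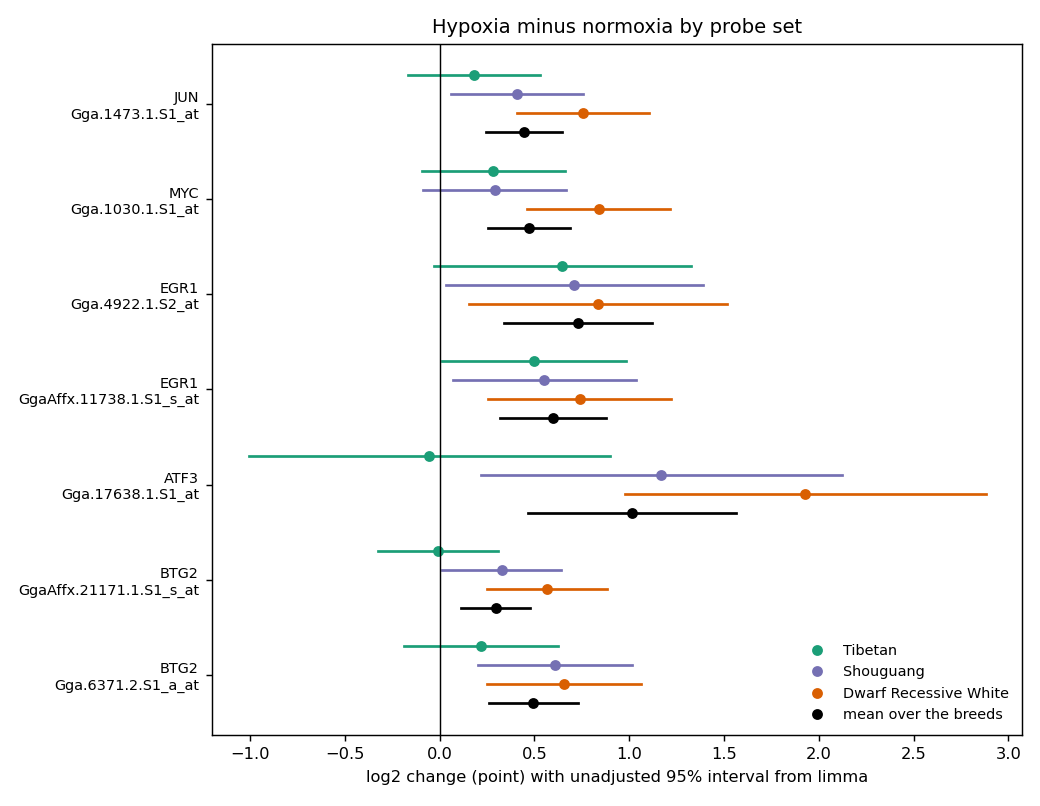
Hypoxia minus normoxia in log2 units (x axis) for the 7 tested probe sets (y axis), as a point with the unadjusted 95% interval of the limma fit, for Tibetan (green), Shouguang (purple), Dwarf Recessive White (orange) and their mean (black). ATF3 runs from -0.06 in Tibetan to 1.93 in Dwarf Recessive White hearts, while the EGR1 points lie close together.

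The W-linked signal was lower in hypoxia in Shouguang, with 8.09 and 8.25 against 9.43 and 8.95 in normoxia. In Dwarf Recessive White it was 9.49 and 8.15 in hypoxia and 6.01 and 8.42 in normoxia, so the conditions overlapped and the means differed through the arrays at 6.01 and 9.49. With that level as a covariate the change in Dwarf Recessive White was 1.98 ± 0.59 for ATF3, 0.84 ± 0.24 for MYC and 0.59 ± 0.20 for JUN. For EGR1 it was 0.41 ± 0.37 and 0.42 ± 0.26, about as low as without normoxia replicate 1. The slope of the covariate comes from differences between replicates, which were by far the largest in Dwarf Recessive White. The covariate and the array left out thus draw largely on the same arrays and are not separate checks. In Shouguang hearts the covariate, with this slope, gave 0.98 and 0.76 for EGR1 and 0.68 for the dimmer tested BTG2 probe set. Shouguang minus Dwarf Recessive White then turned to 0.58 and 0.34 for EGR1 and to 0.14 for that BTG2 probe set. This difference stayed below 0 for the other tested probe sets, with -0.08 for JUN. The mean log2 signal of liver and yolk sac plasma protein markers was lower in hypoxia in each breed, with 7.03 to 8.57 on hypoxia and 8.01 to 9.69 on normoxia arrays. Over the mean of the breeds 9 of 10 measured ones lay below 0, and ALB (-2.83) and TTR (-1.62) passed (limma adjusted p = 0.0378 each). In Dwarf Recessive White hearts AFP (0.65), TF (0.02) and APOA1 (0.99) lay above 0. Of the smooth muscle and pericyte markers 6 of 7 lay below 0 over the mean of the breeds (11.29 to 11.67 in hypoxia, 11.48 to 11.84 in normoxia). Of the cardiomyocyte markers 17 of 19 did so (13.59 to 13.93 against 13.69 to 13.83). In Dwarf Recessive White hearts the cardiomyocyte level was 13.59 and 13.60 in hypoxia and 13.78 and 13.83 in normoxia, but MYH7 alone differed by -2.15 there (2.55 in Shouguang), and the median over the 19 markers was -0.07. Fibroblast and valve mesenchyme markers lay above 0 for 12 of 16 over the mean of the breeds, with levels of 12.14 and 12.14 in hypoxia and 11.65 and 12.08 in normoxia in Shouguang hearts, where 15 of 16 lay above 0, and with 7 of 16 above 0 in Dwarf Recessive White. Red blood cell markers had a mean log2 signal of 10.82 to 10.92 in hypoxia against 10.51 to 10.61 in normoxia in Dwarf Recessive White hearts, and 10.49 to 10.73 against 10.31 to 10.39 in Shouguang hearts. In Tibetan hearts it was 10.23 to 10.38 against 10.36 to 10.63. Their median change was -0.10 in Tibetan, 0.33 in Shouguang and 0.10 in Dwarf Recessive White hearts, with 4, 8 and 7 of 11 above 0, and HBZ (1.38) and HBE (1.28) were far above the rest in Dwarf Recessive White. Leukocyte markers overlapped between the conditions (8.00 to 8.52 against 7.78 to 8.62). None of these markers was at 0, since the arrays give every probe set a signal, and their part in the immediate early signals was not tested.

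The response of the members was then compared between breeds. None of the 7 probe sets passed in any of the 3 differences (0 of 23063, or 0%, did so over all probe sets in each), so a breed-specific response was not shown. ATF3 had the largest difference, with Tibetan minus Dwarf Recessive White at -1.98 ± 0.62 (unadjusted 95% interval from -3.33 to -0.64, adjusted p = 0.9997). It was -2.56 without Tibetan normoxia replicate 2 and -1.40 without replicate 1. Tibetan minus Shouguang stood at -1.23 ± 0.62 for ATF3 (interval from -2.57 to 0.12), a difference that was -1.81 and -0.65 without the same arrays in turn. Shouguang minus Dwarf Recessive White was -0.76 ± 0.62 (interval from -2.10 to 0.59), with -1.31 without Shouguang normoxia replicate 1 and -0.20 without replicate 2.

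For JUN the difference between Tibetan and Dwarf Recessive White was -0.58 ± 0.23 (unadjusted interval from -1.07 to -0.08), and for the brighter BTG2 probe set -0.57 ± 0.20 (from -1.02 to -0.13). The limma adjusted p was 0.9997 for each. For JUN it was -0.41 without Dwarf Recessive White normoxia replicate 1 and -0.74 without replicate 2. For BTG2 it was -0.45 without Tibetan hypoxia replicate 2 and -0.70 without replicate 1. MYC in Dwarf Recessive White hearts differed from both other breeds to a like degree, with -0.56 ± 0.25 for Tibetan (interval from -1.09 to -0.02) and -0.55 ± 0.25 for Shouguang (from -1.08 to -0.01). Neither passed (limma adjusted p = 0.9997 and 0.9989). The MYC value for Tibetan was -0.37 without Tibetan hypoxia replicate 2 and -0.74 without replicate 1. That for Shouguang was -0.47 without Shouguang normoxia replicate 2 and -0.62 without replicate 1. Between Tibetan and Shouguang, MYC differed by -0.01 ± 0.25, with an interval from -0.54 to 0.52 that still allows a difference of either sign. EGR1 differed by -0.19 ± 0.44 and -0.24 ± 0.31 for Tibetan minus Dwarf Recessive White. They turned to 0.38 and 0.14 without Dwarf Recessive White normoxia replicate 1. At an unadjusted p under 0.05, 4 of 7 member probe sets differed between Tibetan and Dwarf Recessive White, beside 4% of all tested. Between Shouguang and Dwarf Recessive White 1 of 7 did (4.56% of all tested), and between Tibetan and Shouguang 0 of 7 (2.88%). The 3 differences share their arrays and are not independent of each other.

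**Figure D3:**
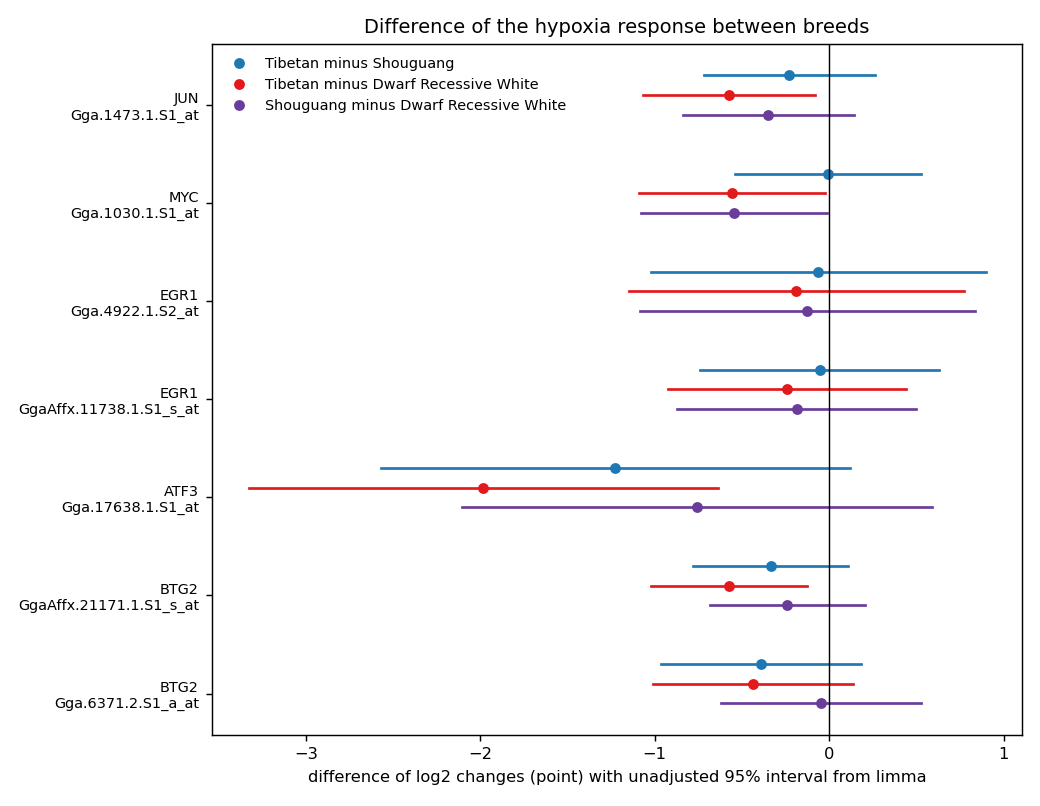
Difference of the hypoxia response between 2 breeds in log2 units (x axis) for the 7 tested probe sets (y axis), as a point with the unadjusted 95% interval of the limma fit; blue is Tibetan minus Shouguang, red Tibetan minus Dwarf Recessive White and purple Shouguang minus Dwarf Recessive White. All points lie below 0, and the red ATF3 interval, from -3.33 to -0.64, is the farthest from it.

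Over both conditions no difference in level between breeds was shown for the members. No member probe set passed by limma in the breed differences, beside 0.551% (Tibetan minus Shouguang), 0.759% (Tibetan minus Dwarf Recessive White) and 1.33% (Shouguang minus Dwarf Recessive White) of all tested probe sets. The largest difference in size was EGR1 in Tibetan minus Shouguang, 0.35 ± 0.22 (unadjusted interval from -0.13 to 0.83, adjusted p = 0.554). MYC was 0.26 ± 0.12 lower in Shouguang than in Dwarf Recessive White (the fitted difference was -0.26, with an interval from -0.53 to 0.0044, adjusted p = 0.438), and JUN 0.21 ± 0.11 higher in Tibetan than in Dwarf Recessive White (adjusted p = 0.4999).

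Most pairs of members were correlated over the arrays. Over the 12 arrays, with 1 probe set per gene, Pearson r was 0.854 between MYC and BTG2, 0.795 between ATF3 and BTG2, 0.777 between JUN and MYC and 0.750 between JUN and EGR1. EGR1 and ATF3 were less alike (0.448), and FOS and EGR1 were not alike (-0.073). The dim FOS had an r of 0.604 with BTG2, 0.602 with ATF3, 0.530 with MYC and 0.359 with JUN. These points share the conditions: after each group mean was taken off, MYC and BTG2 kept an r of 0.697, JUN and EGR1 one of 0.501, ATF3 and BTG2 one of 0.281 and JUN and MYC one of 0.236. Within groups JUN and BTG2 (-0.227), MYC and EGR1 (-0.093), EGR1 and ATF3 (-0.093) and EGR1 and BTG2 (-0.043) were below 0. So were FOS and EGR1 (-0.756) and JUN and FOS (-0.349), while the dim FOS was above 0 with MYC (0.458), ATF3 (0.428) and BTG2 (0.595). FOS read higher on replicate 1 than on replicate 2 in each group, and the brighter EGR1 probe set lower in each but Shouguang hypoxia. The correlations are a description of 12 arrays, in 6 groups of 2, and carry no test.

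Genes elsewhere on the array with the most similar pattern were sought as the 2 highest Pearson r over the 12 arrays for each member. These r were picked as the highest among all tested probe sets with a symbol, so high values come in part from the search. Even the dim FOS reached 0.920, and the likeness was not tested. MYC was closest to CCN2 (r of 0.948), which encodes a connective tissue growth factor of the matrix, and to BLB1 (0.936), a class II histocompatibility chain. CCN2 read 13.62 and 13.64 in Dwarf Recessive White hypoxia against 12.05 and 12.26 in normoxia, 12.96 and 12.98 against 11.74 and 12.05 in Shouguang, and 13.25 and 12.69 against 12.52 and 12.59 in Tibetan hearts. It was higher on both hypoxia arrays in each breed, with the smallest step in Tibetan hearts. ATF3 was closest to ANKRD1 (0.948), a stretch-responsive cardiac ankyrin repeat gene, and to C10orf71 (0.910). ANKRD1 shared with ATF3 the high replicate 1 and low replicate 2 arrays of the Tibetan breed, with 11.46 and 10.30 in hypoxia and 11.20 and 10.67 in normoxia. BTG2 was closest to SPP1 (0.945), the osteopontin gene, and to the apolipoprotein gene APOA1 (0.917). For EGR1 the closest were TAF1 (0.936) and PTP4A1 (0.915), and for JUN they were ZNF706 (0.879) and PABPC4 (0.865). The neighbours of FOS, EBF3 (0.920) and DOT1L (0.897), rest on its dim signals. DOT1L itself was bright, with 11.56 and 11.02 in Dwarf Recessive White hypoxia. FOS, EBF3 and DOT1L all read higher on replicate 1 than on replicate 2 in each group. EBF3 and DOT1L also read higher in hypoxia than in normoxia in Dwarf Recessive White hearts. EBF3 had 8.15 and 7.33 there against 7.10 and 6.42, and DOT1L had 10.75 and 10.45 in normoxia. What the likeness to FOS rests on was not tested.

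Other early response genes had a smaller median change than the members. Members and lists were chosen with earlier results of these arrays known, so this comparison of medians is a description only. Of 67 other early response genes listed, 43 were tested, and 1 of them, CCN2, rose over the mean of the breeds (0.99 ± 0.09, limma adjusted p = 0.00243) while 0 fell. Over all 10276 genes tested with 1 probe set each, 6 rose (0.0584%) and 4 fell. The median of the listed genes was 0.10, with 28 of 43 above 0, against 0.00 and 48.8% over all of these genes. The matrix gene CCN1 stood at 0.69 ± 0.19 (adjusted p = 0.256), with -0.09 in Tibetan, 0.77 in Shouguang and 1.39 in Dwarf Recessive White hearts. The stress and inflammation factor CEBPB stood at 0.43 ± 0.13 (adjusted p = 0.328). The change of CCN2 was 0.42 in Tibetan, 1.07 in Shouguang and 1.48 in Dwarf Recessive White hearts, where it passed the test within the breed (adjusted p = 0.0192). That call was lost when any 1 of 7 arrays was left out, namely Dwarf Recessive White hypoxia 1 or 2 or normoxia 1, Shouguang hypoxia 1 or 2, and Tibetan normoxia 1 or 2 (adjusted p from 0.0539 to 0.194). It was also lost once the W-linked signal entered the fit (adjusted p = 0.394) and without the intensity trend of the variances (adjusted p = 0.365).

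**Figure D4:**
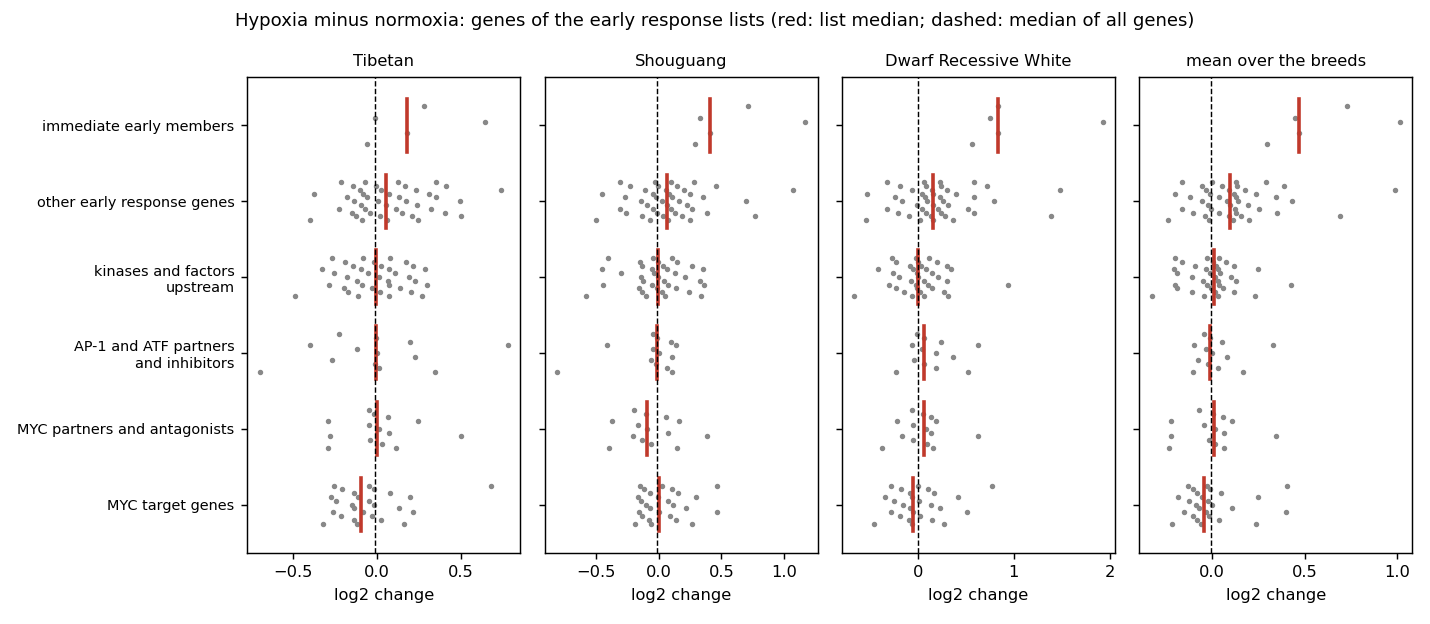
Hypoxia minus normoxia in log2 units (x axes) of the genes in 6 lists (y axis), 1 probe set per gene, in each breed and averaged over the breeds; grey points are genes, red bars list medians and the dashed line the median of all genes. The median of the members goes from 0.18 in Tibetan through 0.41 in Shouguang to 0.84 in Dwarf Recessive White hearts, while the medians of the other lists stay between -0.10 and 0.16. Members and lists were chosen with earlier results of these arrays known.

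Upstream of the members, the signalling kinases and bound factors had a median of 0.01, with 19 of 36 above 0 and 0 called in either direction. ELK4, an SRF partner, had the smallest p among them (0.42 ± 0.10, adjusted p = 0.205). Its log2 signals were 10.58 and 10.61 in Dwarf Recessive White hypoxia against 9.71 and 9.60 in normoxia, a change of 0.94, beside 0.26 in Shouguang and 0.07 in Tibetan hearts. MAP2K1, the kinase that activates the ERK kinases, stood at -0.20 ± 0.08 and the small GTPase RHOA at -0.11 ± 0.05. Of the other AP-1 and ATF family members and their regulators 6 of 13 lay above 0, with a median of -0.01 and 0 called. NFE2L1 stood at 0.17 ± 0.06, MAF at 0.33 ± 0.25 and ATF4, the main activator of ATF3 under amino acid and endoplasmic reticulum stress, at 0.05 ± 0.05 (adjusted p = 0.839).

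Around MYC the listed genes stood close to 0 in their median. MYC partners and antagonists had a median of 0.01 with 8 of 14 above 0, and 0 called. MYCN, the paralog of MYC, stood at 0.35 ± 0.14 (adjusted p = 0.533), with 0.50 in Tibetan, 0.38 in Shouguang and 0.16 in Dwarf Recessive White hearts. This order of breeds was opposite to that of MYC, whose Tibetan and Shouguang changes were nearly equal (0.28 and 0.29). In Tibetan hearts MYCN had 9.48 and 9.34 in hypoxia and 8.52 and 9.30 in normoxia, so its change there rests largely on normoxia replicate 1. SKP2 stood at -0.22 ± 0.09 and MXD3 at -0.22 ± 0.13. Of the MYC target genes 19 of 26 lay below 0, with a median of -0.04 and 0 called. The exceptions with small p were LDHA, the lactate dehydrogenase subunit that is also a target of the hypoxia-inducible factor (0.41 ± 0.07, adjusted p = 0.0539), and the nucleolar gene NPM1 (0.25 ± 0.07, adjusted p = 0.258). The change of LDHA was 0.68 in Tibetan hearts and 0.27 in each of the other breeds. RAN, a nuclear transport GTPase, stood at -0.15 ± 0.05 (adjusted p = 0.454).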

How the data were processed

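For 12 arrays the authors deposited linear signal intensity values made with GCOS, per the submitters' processing notes (version not given in the sources used here). With the highest and lowest 2% of values left out, every array had a mean signal of 500.1, so the authors had scaled the arrays to a common mean. The 96 control probe sets were removed from the 38535 and the log2 of each signal was taken without renormalizing. The model, run with limma 3.58.1 under R 4.3.3, had 6 group means, with variances moderated along intensity (6 residual and 6.16 prior degrees of freedom). Tests were two-sided, with Benjamini-Hochberg adjustment over all 23063 tested probe sets. Nothing in the labels says that the 2 arrays of a group came from separate embryos, so p-values measure only how far the arrays of a group lie apart, possibly for technical reasons, and the number of arrays limits precision: the median SE was 0.26 for a change within a breed. A gene with several probe sets is summarised by the brightest.

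Symbols came from the platform annotation, updated through a RefSeq gene table of GRCg7b; 27178 probe sets had 1 symbol, 177 several and 11180 none. The members and lists were chosen with earlier results of these data known. Of the lists, the 3 genes with the smallest p and any that passed are named, and no set test was run. A planned search for promoter motifs was not run, and sequences were not used here. The fit was tested on simulated data with known changes. In the mean over the breeds it recovered 28.36% of changes of 0.5, 71.64% of changes of 1 and 95.45% of changes of 2. In the simulation a change of 0.5 was thus missed more often than called. The changes were planted in 67, 67 and 66 probe sets with independent noise, and 12 unchanged probe sets were called. In the real data 13 probe sets were called in this contrast, so these shares need not hold for the members. Alternatives were other filters, normalizations, offset, variance trend, weights, covariates, thresholds and arrays left out.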

Additional observations from a re-analysis of the deposited data

How the results depend on the processing

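The count of member probe sets past the threshold was 0 in all 10 contrasts and kept this value under every alternative but the following. Averaged over the breeds, 2 passed with the replicate number as a replicate block, JUN (0.45, adjusted p = 0.0456) and EGR1 (0.73, adjusted p = 0.0479). It ranged from 0 to 1 over the fits that left out an array, the 1 being the dimmer tested EGR1 probe set without Dwarf Recessive White normoxia replicate 2 (adjusted p = 0.0441). In Dwarf Recessive White, 1 passed with only the arrays compared, ATF3 (adjusted p = 0.0411). The same-numbered arrays of a breed had correlated deviations of 0.194 in Tibetan, 0.199 in Shouguang and 0.091 in Dwarf Recessive White, and all 15 pairs of groups had a correlation above 0 (0.059 to 0.199). The last breed missed the limit of 0.1, so the numbers were not taken as pairs, and the block is a hint only; with it 81 probe sets passed over the mean of the breeds, against 13. The means over the breeds of JUN, MYC, EGR1, ATF3 and BTG2 kept their direction in all 23 alternatives, lowest to highest 0.39 to 0.50, 0.41 to 0.53, 0.54 to 0.92, 0.82 to 1.21 and 0.24 to 0.35. Some of these alternatives alter only the filter, the variances or the threshold and cannot move a mean. Over all probe sets, the count for the mean ranged from 0 (no intensity trend) to 81, and from 2 to 17 with an array left out. For Dwarf Recessive White it was 1, with 0 to 7 and 0 to 23. For the breed differences it was 127 (18 to 605), 175 (15 to 579) and 306 (100 to 711), in the order of the report. CCN2 kept its call over the mean of the breeds in 22 of 23 alternatives and lost it without the intensity trend (adjusted p = 0.131). FOS lay under the dim limit on 9 of 12 arrays and the dimmest BTG2 probe set on all 12. No order of the conditions was taken from them.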
